A study of Mus musculus with 12 samples.

Results

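Desquamation is the shedding of the outermost cells of the skin. It is carried out by serine proteases that cut the junctions holding these cells together. The 10 genes described here encode that system: 8 kallikrein-related peptidases (Klk5, Klk6, Klk7, Klk8, Klk10, Klk11, Klk13 and Klk14), their inhibitor Spink5, and the membrane protease St14. They were chosen by gene symbol, with no threshold on any measured value, and all 10 were found among the 18858 genes of the deposited table. The choice of these genes was nonetheless made with results of these data known, the low Spink5 level in TSeL skin among them. All 10 passed the filter on low counts, which left 15791 genes to be tested.

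Spink5 encodes LEKTI, a chain of Kazal-type inhibitor domains released in the granular layer, and LEKTI blocks KLK5, KLK7 and KLK14. KLK5 is trypsin-like, can activate itself and activates KLK7, which is chymotrypsin-like, and both cut the proteins of corneodesmosomes, the junctions of the stratum corneum. Loss of SPINK5 in humans causes Netherton syndrome, in which the stratum corneum detaches. Matriptase, the product of St14, is a membrane-bound protease that acts with prostasin (Prss8), is needed in mice for profilaggrin processing and hair follicle growth, and feeds the kallikrein cascade in Spink5-deficient mice.

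The data were poly(A) RNA-seq of skin from BALB/C mice aged 8 weeks. The labels give 4 treatments with 3 samples each, named TL+L, TSeL, TSeL+L and PBS (phosphate-buffered saline, taken as the control), and do not say what TL, TSe and L stand for or whether the 3 samples are separate animals. P-values therefore measure the spread between these samples only. The 3 columns read as TSeL were nearly identical to each other, as were the 3 read as TSeL+L. Each set was averaged and counted as 1 sample, so TSeL and TSeL+L have no replicates and all their values rest on that reading of the column codes.

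Totals ran from 16630581 to 17318157 counts per column. Skin composition differed between samples. Epidermal keratins (7 genes) made up 1.01% to 1.21% of counts in TL+L, 0.579% in TSeL, 1.39% in TSeL+L and 0.667% to 0.994% in PBS. Granular layer genes (10), which mark the layer where LEKTI is released, made up 0.242% to 0.343% in TL+L, 0.110% in TSeL, 0.435% in TSeL+L and 0.148% to 0.162% in PBS. Hair shaft and root sheath genes (21 measured) made up 0.555% to 3.88% in TL+L, 0.0190% in TSeL, with 4 of them at 0, 1.98% in TSeL+L and 0.00319% to 0.193% in PBS. Skeletal muscle genes (15) made up 0.820% to 3.83% in TL+L, 11.9% in TSeL, 3.14% in TSeL+L and 1.47% to 4.01% in PBS. In whole skin, fewer cells of a type and less RNA per cell cannot be told apart.

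Against PBS skin, 2 of the 10 genes passed the test in TL+L skin, Klk5 and St14, and both were higher. The share of all 15791 genes called in that comparison was 12.8%, with 5.67% higher and 7.17% lower. CPM values (counts set against the library total after TMM scaling) of TL+L and PBS did not overlap for 4 of the 10, namely Spink5, Klk5, Klk7 and St14, all of them higher. Of all genes, 20.7% were higher without overlap and 21.8% lower. Over the 10 genes the log2 fold changes had a median of -0.0071, against 0.0129 over all genes tested. In TSeL skin the median of the 10 was -0.93, against 0.0075 over all genes. The TSeL medians of the 10 include Spink5, whose low TSeL level was known beforehand, so they are only descriptions. In TSeL+L skin it was -0.17, against -0.0027 over all genes. With counts scaled to epidermal keratins the medians of the 10 were -0.32 in TL+L, -0.63 in TSeL and -0.78 in TSeL+L, against -0.32, 0.28 and -0.65 over all genes. With library totals alone they were 0.14, -1.11 and -0.011, against 0.15, -0.18 and 0.16 over all genes. The 3 comparisons share the PBS samples.

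**Figure D1:**
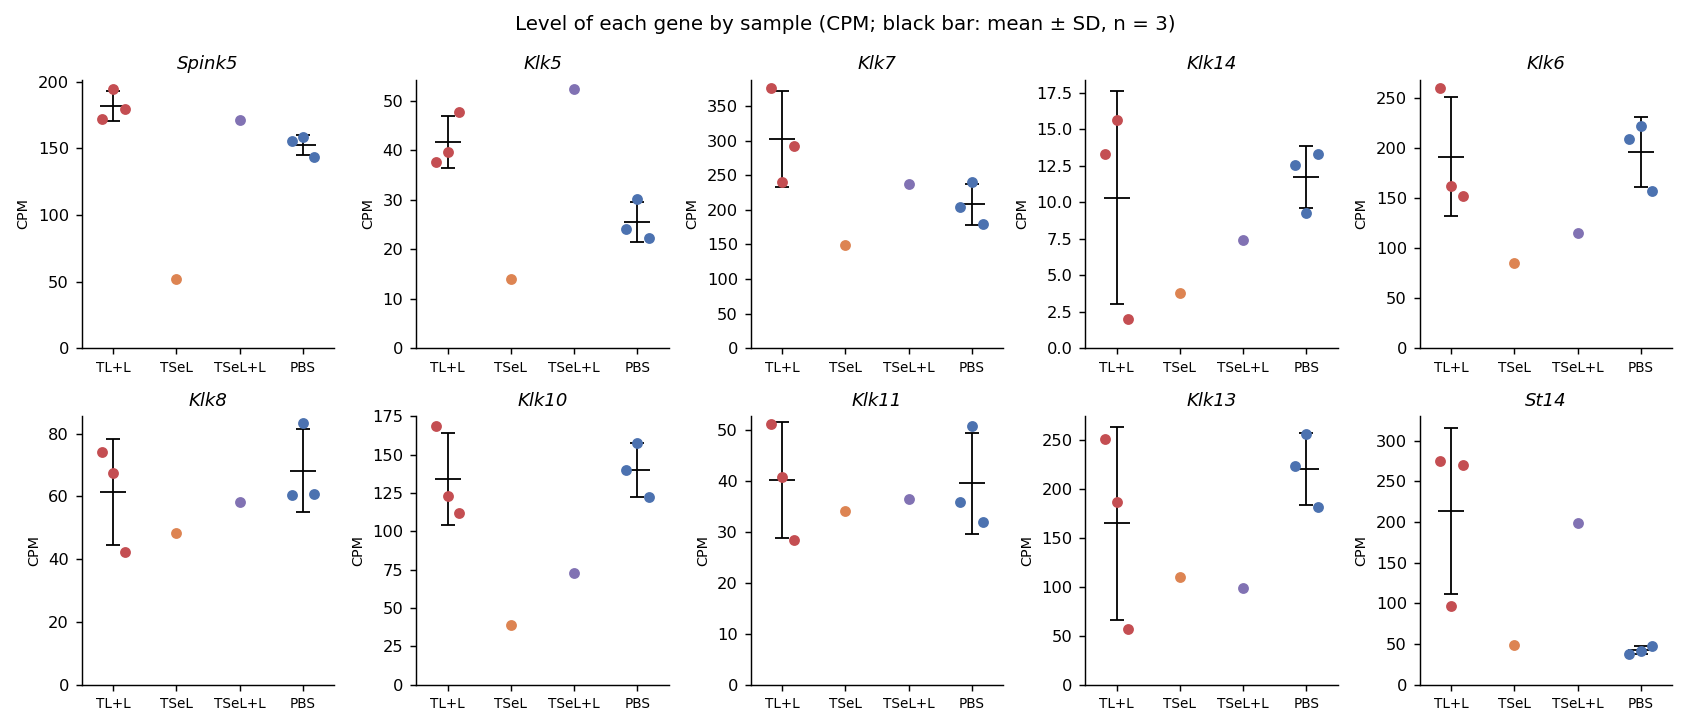
CPM of the 10 genes by sample, on linear axes from 0, in TL+L, TSeL, TSeL+L and PBS skin. Each point is 1 sample and black bars are the mean ± SD of 3 samples. Spink5 is at 52.2 CPM in TSeL and between 144 and 194 CPM everywhere else, and St14 is above 96 CPM in TL+L and TSeL+L and under 49 CPM in TSeL and PBS.

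The inhibitor Spink5 (gene ID 72432) had 172, 194 and 179 CPM in the TL+L samples, 52.2 CPM in TSeL, 171 CPM in TSeL+L and 156, 158 and 144 CPM in the PBS samples. The TSeL sample lay below all the others, and the TL+L samples lay above PBS by a narrow margin. In TL+L the log2 fold change was 0.25 (SE 0.11), which did not pass (adjusted p = 0.143, edgeR quasi-likelihood test with Benjamini-Hochberg adjustment). The TSeL level was 2.92-fold lower than PBS, a log2 difference of -1.55. It is given as a description, because this value was known when the genes were proposed. TSeL+L was 3.28-fold above TSeL, a log2 difference of 1.71, also with no test because it rests on the same TSeL sample.

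The 3 nearly identical TSeL columns held 729 to 765 Spink5 counts and the TSeL+L columns 3049 to 3171. The gap between these samples was far wider than their technical spread, but a single sample of each gives no measure of the spread between mice.

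Klk5 (68668), the trypsin-like protease that LEKTI restrains, rose in TL+L skin. It had 37.7, 39.6 and 47.7 CPM in TL+L, 13.99 CPM in TSeL, 52.3 CPM in TSeL+L and 24.1, 30.1 and 22.2 CPM in PBS. Each TL+L sample was above each PBS sample, TSeL was below all of them and TSeL+L was above all of them. The TL+L level was 1.64-fold that of PBS, a log2 fold change of 0.71 (SE 0.17, adjusted p = 0.0429, edgeR). The call was lost without any 1 of the PBS samples, TL+L 1 or TL+L 3, with adjusted p-values of 0.0874 to 0.140. It was also lost when counts were scaled to epidermal keratins (adjusted p = 0.261). Over all alternatives its adjusted p ran from 0.00138 to 0.261. Leaving out 1 sample, the number of all genes called in TL+L ran from 16 to 6299, against 2029 with all samples.

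Klk7 (23993), the chymotrypsin-like partner of Klk5, had 377, 239.6 and 292 CPM in TL+L, 149 CPM in TSeL, 237 CPM in TSeL+L and 204, 239.5 and 179.7 CPM in PBS. TL+L 2 and PBS 2 were level, so the groups only just failed to overlap. The log2 fold change in TL+L was 0.54 (SE 0.20, adjusted p = 0.111, edgeR). In TSeL the gene was 1.39-fold below PBS, the smallest deficit but for Klk11 among the 9 genes that were lower there.

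Klk14 (317653), a trypsin-like kallikrein also held by LEKTI, was the least abundant of the 10. Its levels were 13.3, 15.7 and 2.01 CPM in TL+L, 3.78 CPM in TSeL, 7.39 CPM in TSeL+L and 12.6, 9.28 and 13.3 CPM in PBS. TL+L 3 stood apart from the other TL+L samples, and the log2 fold change of -0.18 (SE 0.65) was smaller than its error. Without TL+L 3 it was 0.31.

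Because LEKTI acts on KLK5, KLK7 and KLK14, Spink5 counts were set against the summed counts of these 3 genes in the same sample, a ratio that no scaling of libraries can change. Klk7 held most of the sum in every sample, with 3338 counts in PBS 1 against 395 for Klk5 and 206 for Klk14. The ratio therefore says little about Klk5 or Klk14. Counts are not set per length, so the ratio can be compared only between samples. The ratio was 0.403, 0.659 and 0.525 in TL+L, 0.313 in TSeL, 0.577 in TSeL+L and 0.648, 0.568 and 0.668 in PBS. TL+L and PBS overlapped. Their log2 ratios differed by -0.27, with an exact two-sided permutation p of 0.3, where 3 against 3 samples cannot give less than 0.1. The TSeL sample had the lowest ratio of the 8. That is only a description, because its low Spink5 level was known when the genes were proposed.

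**Figure D2:**
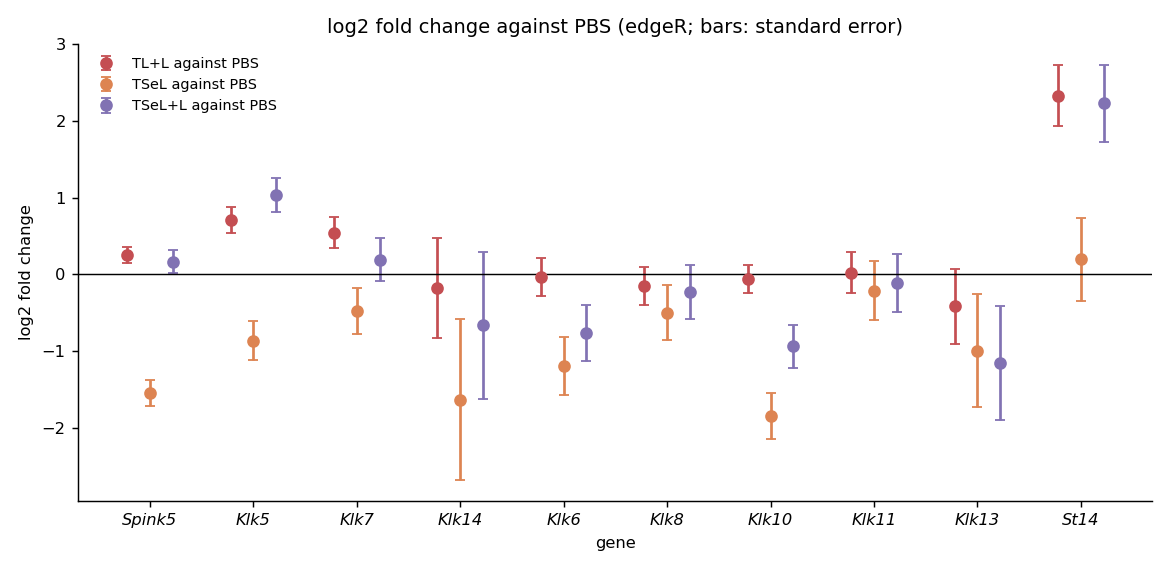
log2 fold change of each gene in TL+L, TSeL and TSeL+L against PBS from the edgeR fit, with bars for the standard error. TSeL and TSeL+L are 1 sample each. In TSeL 9 of 10 genes are below 0, with Klk10 at -1.85 and Spink5 at -1.55, and St14 is at 2.33 in TL+L and 2.23 in TSeL+L.

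The other 5 kallikreins are secreted proteases of the upper epidermis, and none passed the test in TL+L skin, where 12.8% of all genes did. Their log2 fold changes there ran from -0.42 for Klk13 to 0.02 for Klk11, with adjusted p-values of 0.560 to 0.958 (edgeR). Of Klk6, Klk8, Klk10 and Klk13, all were below the PBS range in both TSeL and TSeL+L, while Klk11 was within it in both. Of all genes, 33.4% were below it in TSeL and 36.4% in TSeL+L. The share below it in both was not computed, and both are single samples set against the same PBS samples.

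Klk6 (19144), a trypsin-like kallikrein also known from the nervous system, had 259, 162 and 152 CPM in TL+L, 85.3 CPM in TSeL, 115 CPM in TSeL+L and 209, 222 and 157 CPM in PBS. Its TL+L samples spanned the whole PBS range, and TSeL was 2.30-fold below PBS. Klk10 (69540) had 169, 123 and 112 CPM in TL+L, 38.9 CPM in TSeL, 73.1 CPM in TSeL+L and 140.4, 157 and 122 CPM in PBS. With a 3.60-fold lower level, it had the widest gap of the 10 genes between TSeL and PBS. TSeL+L lay 1.92-fold below PBS and 1.88-fold above TSeL.

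Klk13 (626834) varied widely within TL+L, with 251, 187 and 57.0 CPM there, 111 CPM in TSeL, 98.8 CPM in TSeL+L and 224, 256 and 182 CPM in PBS. TL+L 3 was below every other sample, and without it the log2 fold change of -0.42 (SE 0.49) became 0.0023. Klk13 was the only one of the 10 genes that was not higher in TSeL+L than in TSeL (log2 difference -0.16, and 0.18 with library totals). Klk8 (259277), the trypsin-like kallikrein called neuropsin, had 74.1, 67.5 and 42.2 CPM in TL+L, 48.2 CPM in TSeL, 58.1 CPM in TSeL+L and 60.5, 83.4 and 60.7 CPM in PBS. Klk11 (56538) had 51.2, 40.8 and 28.5 CPM in TL+L, 34.1 CPM in TSeL, 36.5 CPM in TSeL+L and 35.9, 50.8 and 31.9 CPM in PBS. In TSeL, Klk8 was 1.42-fold and Klk11 1.16-fold below PBS.

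Taking TSeL as a whole and setting Spink5 aside, Klk5, Klk6, Klk7, Klk8, Klk10, Klk13 and Klk14 were below the PBS range. Of all genes, 33.4% were. St14 was above that range, as were 37.5% of all genes. Klk6, Klk10 and Klk14 were at least 2-fold below PBS, where 7.73% of all genes were, and none was at least 2-fold above PBS, as 8.28% were. With 1 TSeL sample edgeR called 0 of the 10 genes and 0 of all genes in this comparison. Spink5, given above as a description, is set aside in the counts that follow. Of the other 9 genes edgeR gave 3 at an unadjusted p under 0.05, where it gave 19.7% of all genes. DESeq2 called 3 of the 9 and 8.57% of all genes, and limma-voom called 0 of either.

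In TSeL+L, Spink5, Klk5 and St14 were above the PBS range, as were 36% of all genes. Klk6, Klk8, Klk10, Klk13 and Klk14 were below it, as were 36.4% of all genes. EdgeR called 0 of the 10 in TSeL+L against PBS, where it called 0.0127% of all genes, 0.00633% higher and 0.00633% lower. At an unadjusted p under 0.05 it gave 3 of the 10 and 20.6% of all genes. DESeq2 called 3 of the 10 and 9.59% of all genes, and limma-voom called 0 of the 10 and 0.0253% of all genes. The pattern was divided: Klk5 was 2.05-fold above PBS while Klk13 was 2.23-fold below it.

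Set directly against TSeL, and with Spink5 set aside, the TSeL+L sample had at least 2-fold more Klk5 and St14, as did 7.71% of all genes. None of the other 9 was at least 2-fold lower, as 9.75% of all genes were. The log2 differences were 1.90 for Klk5, 2.03 for St14, 0.97 for Klk14, 0.91 for Klk10 and 0.67 for Klk7. Klk6, Klk8 and Klk11 differed by 0.43 or less. With Spink5 again set aside, edgeR called 0 of the other 9 genes and 0% of all genes here, and gave 3 of the 9 and 12.1% of all genes at an unadjusted p under 0.05. DESeq2 called 1 of the 9 and 2.28% of all genes, and limma-voom called 0 of either. Scaled to epidermal keratin counts, Klk6, Klk7, Klk8, Klk10 and Klk11 were below TSeL instead.

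Because epidermal content differed between samples, each gene was also set against the epidermal keratin counts of its own sample. Per 1000 such counts, Spink5 had 15.7, 18.7 and 18.4 in TL+L, 7.68 in TSeL, 13.3 in TSeL+L and 19.1, 15.2 and 21.2 in PBS. TSeL remained the lowest sample, while TL+L fell among the PBS values and TSeL+L just below them. The keratins of this list did not move alike, so the scale depends on which are summed. In TSeL against PBS 3 of the 7 were higher and 4 lower, with Krt5 at log2 0.41 and the suprabasal Krt10 at -1.01. In TL+L 6 were higher and 1 lower, from Krt14 at log2 -0.28 to Krt77 at 6.04, with Krt15 at 2.81. Hair genes were higher in TL+L too, and the part of hair follicles in this scale was not tested. Per Krt10 count, Spink5 in TSeL was 0.107, below the PBS values but above TSeL+L (0.0451) and TL+L 2 (0.0794). Klk10 had 15.3, 11.9 and 11.5 in TL+L, 5.72 in TSeL, 5.69 in TSeL+L and 17.2, 15.1 and 18.05 in PBS. On this scale TSeL and TSeL+L were level for Klk10. Klk5 had 3.43, 3.81 and 4.90 in TL+L, 2.06 in TSeL, 4.07 in TSeL+L and 2.96, 2.89 and 3.27 in PBS, so that each TL+L sample stayed above PBS.

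Klk7 had 34.3, 23.1 and 30.0 per 1000 epidermal keratin counts in TL+L, 21.96 in TSeL, 18.4 in TSeL+L and 25.0, 23.0 and 26.5 in PBS. Here TSeL lay close under PBS. Klk11 had 4.67, 3.93 and 2.93 in TL+L, 5.02 in TSeL, 2.84 in TSeL+L and 4.41, 4.88 and 4.70 in PBS, and TSeL was the highest sample. In TSeL+L against TSeL, scaling to these keratins moved the median log2 fold change over all genes tested to -0.99, and library totals moved it to 0.27.

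**Figure D3:**
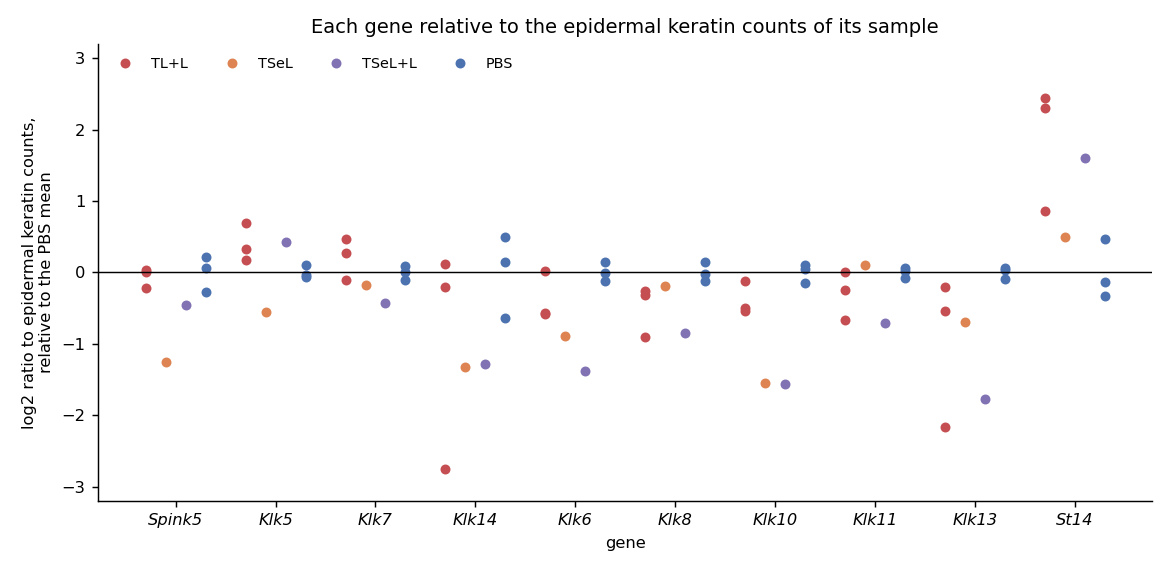
log2 ratio of each gene to the summed epidermal keratin counts of the same sample, minus the mean of the PBS samples. Points are single samples of TL+L, TSeL, TSeL+L and PBS. TSeL is far below PBS for Spink5 and Klk10 and level with it for Klk11, and TL+L 3 is the low point for Klk14 and Klk13.

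The 8 kallikreins lie in a row on mouse chromosome 7. In the RefSeq annotation of GRCm38.p6 the order is Klk14, Klk13, Klk12, Klk11, Klk10, Klk9, Klk8, Klk7, Klk6 and Klk5, with no annotated overlap between them. Neighbours did not move alike in TL+L 3. Its level, as a ratio to the mean of TL+L 1 and TL+L 2, was 0.139 for Klk14, 0.260 for Klk13 and 0.224 for Klk12. These genes sit at one end of the row, and at most 1.29% of all genes tested had ratios as low. TL+L 3 was singled out after its low Klk14 and Klk13 levels were seen, so that share is only a description. At the other end the ratio was 0.947 for Klk7, 0.719 for Klk6 and 1.24 for Klk5.

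Between those ends the ratio was 0.619 for Klk11, 0.768 for Klk10, 0.275 for Klk9 and 0.596 for Klk8. Klk9 therefore broke the order, with 196, 111 and 42.2 CPM in TL+L, 57.1 CPM in TSeL, 60.0 CPM in TSeL+L and 104, 133 and 111 CPM in PBS. TL+L 3 was also the TL+L sample with the most hair counts, 3.88% against 2.19% and 0.555%, and with the fewest counts of activated epidermis genes, 0.621% against 1.84% and 0.907%. The part of either in these ratios was not tested.

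**Figure D4:**
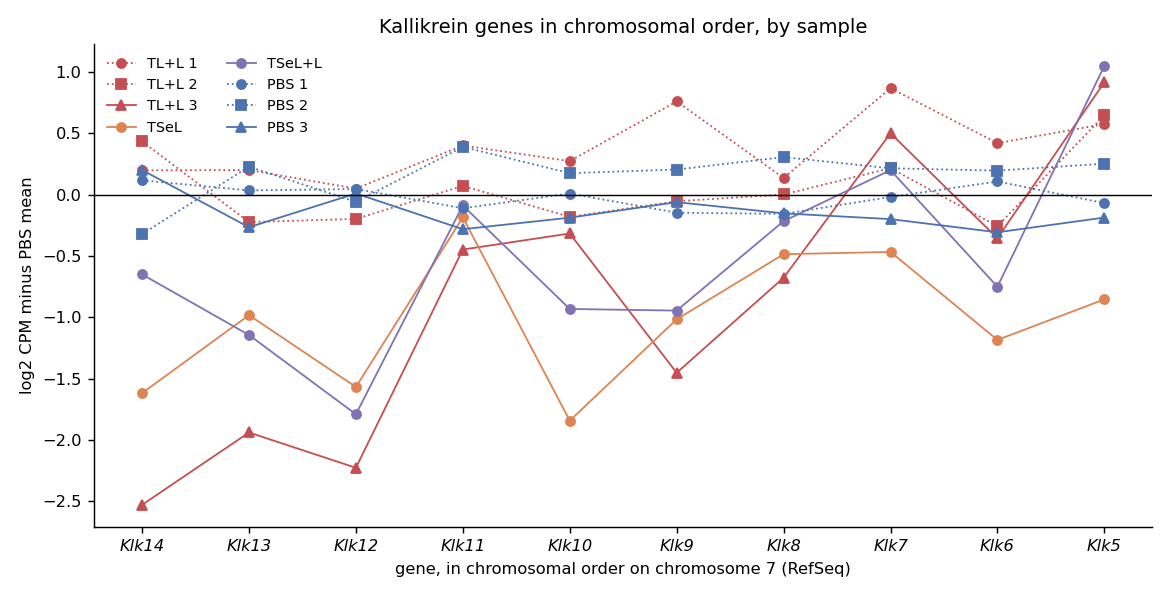
log2 CPM of the 10 measured kallikreins of the chromosome 7 row in chromosomal order, by sample, minus the mean of the PBS samples. Lines join the genes of 1 sample. TL+L 3 is lowest at Klk14, Klk13, Klk12, Klk11, Klk9 and Klk8 and above PBS at Klk7 and Klk5, and TSeL is lowest at Klk10, Klk7, Klk6 and Klk5.

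Klk7 and Klk10 show how near neighbours differed in TSeL skin, with levels 1.39-fold and 3.60-fold below PBS. Each has 1 transcript in the deposited table, so a single start applies to its counts. The 250 bases before each start are shown as plus-strand RefSeq sequence of GRCm38.p6, at chr7:43811044-43811293 for Klk7 and chr7:43780804-43781053 for Klk10. Capitals mark CACCC or its reverse complement GGGTG, the letters bound by Krüppel-like factors.
Klk7: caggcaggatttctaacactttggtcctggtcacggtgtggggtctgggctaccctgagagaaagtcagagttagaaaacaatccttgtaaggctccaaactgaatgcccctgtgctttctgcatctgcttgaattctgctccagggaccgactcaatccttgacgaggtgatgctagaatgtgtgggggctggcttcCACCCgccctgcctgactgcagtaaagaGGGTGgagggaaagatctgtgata
Klk10: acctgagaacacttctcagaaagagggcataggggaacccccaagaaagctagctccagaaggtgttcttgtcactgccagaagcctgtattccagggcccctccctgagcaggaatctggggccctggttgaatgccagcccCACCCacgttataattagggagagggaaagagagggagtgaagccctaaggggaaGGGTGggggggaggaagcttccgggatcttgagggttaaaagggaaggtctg
Both windows hold the motif in 2 places, once on each strand, and 52.0% of 32851 mouse promoters of that length hold it. Across the 10 windows matched to the 8 kallikreins, both strands were also searched for 3 other motifs. The TATA box letters TATAAA were found in none of them and in 12.4% of all promoters. The AP-1 letters TGANTCA were found in none and in 6.7% of all promoters. The grainyhead-like motif AACCGGTT was found in none and in 0.1% of all promoters.

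Matriptase, encoded by St14 (19143), showed the largest rise of the 10 genes. It had 275, 96.3 and 270.3 CPM in TL+L, 48.8 CPM in TSeL, 199 CPM in TSeL+L and 37.9, 42.0 and 47.9 CPM in PBS. All TL+L samples and TSeL+L were above PBS, with TL+L 2 well under the other TL+L samples, and TSeL was just above the PBS range. The TL+L level was 5.02-fold that of PBS, a log2 fold change of 2.33 (SE 0.40, adjusted p = 0.0269, edgeR). TSeL+L was 4.68-fold above PBS (log2 2.23, SE 0.50, adjusted p = 0.112, edgeR).

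The St14 call in TL+L held with counts scaled to epidermal keratins (log2 1.98, adjusted p = 0.0206, edgeR). It was lost without any 1 of the PBS samples, TL+L 1 or TL+L 3, with adjusted p-values of 0.0681 to 0.106 and log2 fold changes of 2.13 to 2.43. Over all alternatives its adjusted p ran from 2.55e-07 to 0.106. Leaving out 1 sample, the number of all genes called in TL+L ran from 16 to 6299, against 2029 with all samples. The loss is therefore not particular to St14. Hair counts moved with St14: they were 2.19%, 0.555% and 3.88% in TL+L, 0.0190% in TSeL, 1.98% in TSeL+L and 0.0221%, 0.00319% and 0.193% in PBS. Their part in the St14 result was not tested.

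The partners of matriptase were measured in a list of 14 proteases, receptors and inhibitors, of which 13 were tested. In TL+L skin 3 of them were called higher and 1 lower, where 5.67% of all genes were called higher and 7.17% lower. By sign alone, 8 of the 13 were higher and 5 lower. Their median was a log2 value of 0.18 (-0.17 with epidermal keratin scaling). Prss8, which encodes prostasin, rose, with 28.9, 23.5 and 39.8 CPM in TL+L, 10.6 CPM in TSeL, 25.8 CPM in TSeL+L and 10.4, 8.60 and 11.8 CPM in PBS (log2 1.58, adjusted p = 0.0222, edgeR). Spint1 encodes HAI-1, the main inhibitor of matriptase. It rose too, with 219.9, 74.8 and 171 CPM in TL+L, 40.6 CPM in TSeL, 136 CPM in TSeL+L and 40.8, 51.8 and 41.6 CPM in PBS (log2 1.80, adjusted p = 0.0364, edgeR). Both followed St14 in being lowest in TL+L 2 among the TL+L samples and near PBS in TSeL. The hair counts did the same, and their part in these results was not tested.

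F2rl1 encodes PAR2, a receptor that is switched on by cleavage by KLK5 or matriptase. It had 25.7, 14.7 and 34.4 CPM in TL+L, 14.3 CPM in TSeL, 21.1 CPM in TSeL+L and 8.66, 8.17 and 8.64 CPM in PBS (log2 1.56, adjusted p = 0.0321, edgeR). The inhibitor HAI-2, from Spint2, did not pass, with 179, 87.4 and 137 CPM in TL+L, 95.5 CPM in TSeL, 114 CPM in TSeL+L and 68.4, 87.1 and 53.2 CPM in PBS (log2 0.95, adjusted p = 0.0757, edgeR).

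Slpi, a secreted inhibitor of KLK7 and of neutrophil elastase, went the other way. It fell to 38.1, 27.4 and 26.4 CPM in TL+L, with 52.6 CPM in TSeL and 25.5 CPM in TSeL+L, against 167, 149 and 97.2 CPM in PBS (log2 -2.17 for TL+L, adjusted p = 0.0119, edgeR). All samples of the other groups were below PBS. Neutrophil genes (12) made up 0.133% to 0.541% of counts in TL+L, 0.342% in TSeL, 0.188% in TSeL+L and 0.538% to 0.834% in PBS. S100a8 and S100a9, which are also in the list of activated epidermis genes, held most of these counts in every sample. In the fit all 12 were lower in TL+L, with a median log2 fold change of -3.22, against -1.02 for S100a8 and -1.08 for S100a9. The part of these 12 genes in the Slpi result was not tested. Under scaling to epidermal keratins or by library totals the calls of Prss8, Spint1, F2rl1 and Slpi in TL+L held. Leaving out 1 TL+L or PBS sample at a time, the first 3 calls held in 1 of 6 cases each and that of Slpi in 3 of 6. Calls over all genes ran from 16 to 6299 in these cases, against 2029 with all samples.

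**Figure D5:**
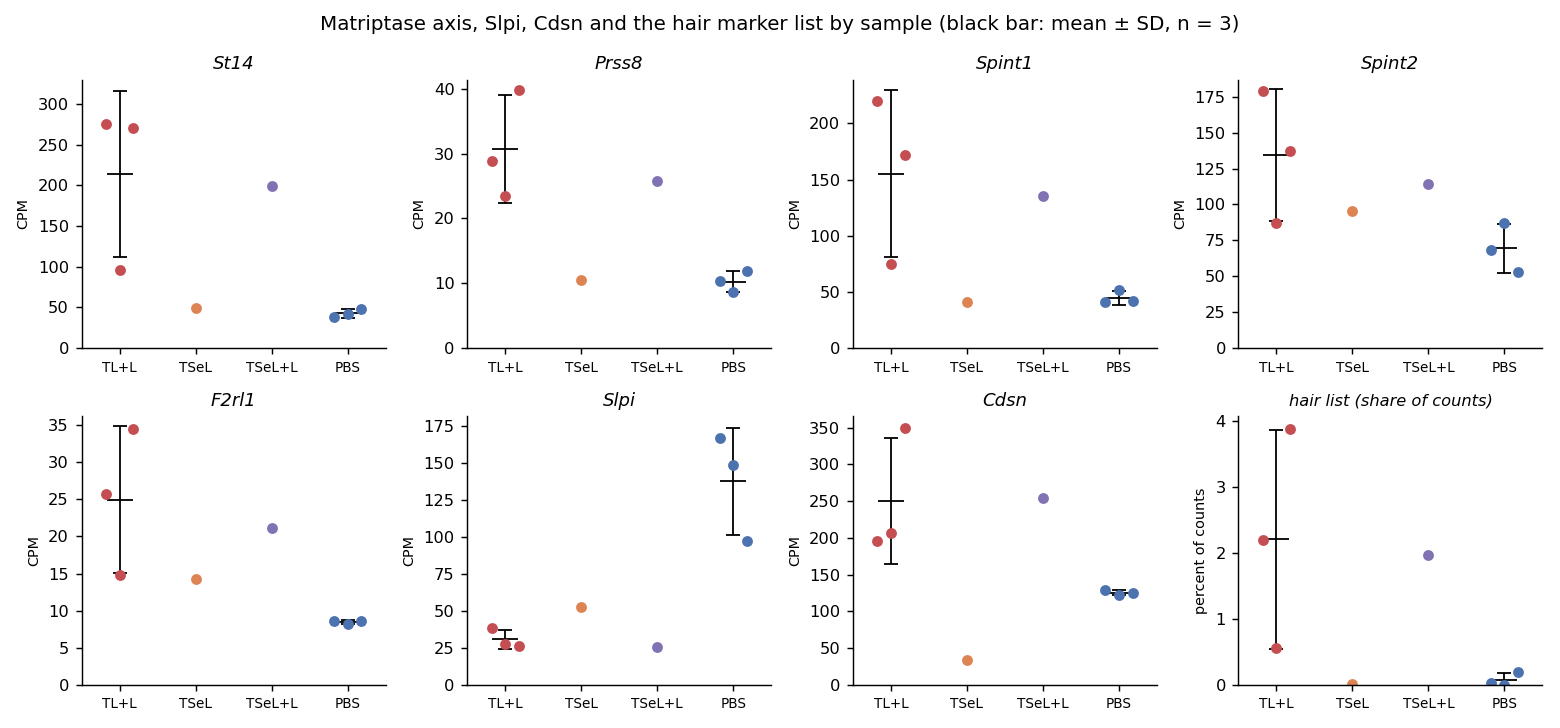
CPM by sample of St14, Prss8, Spint1, Spint2, F2rl1, Slpi and Cdsn, and the hair list as a percentage of counts, in TL+L, TSeL, TSeL+L and PBS skin. Points are samples and black bars the mean ± SD of 3. St14, Prss8, Spint1, F2rl1 and the hair share are higher in TL+L and TSeL+L than in PBS, and Slpi is lower.

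The substrates of the desquamation proteases were followed in a list of 11 corneodesmosome and filaggrin-family genes. All 11 had positive log2 fold changes in TL+L (10 with epidermal keratin scaling), with a median of 1.00 (0.68 with that scaling). Of the 11, 3 were called higher, where 5.67% of all genes were. The granular layer genes, a list that also holds Flg, Hrnr and Cdsn, moved with them: all 10 were higher in TL+L in the fit, 3 of them called, with a median of 0.98. Their summed share of counts, given above, was higher in TL+L and TSeL+L than in PBS and lowest in TSeL, and its part in these results was not tested. Cdsn, which encodes corneodesmosin, a substrate of KLK5 and KLK7, rose, with 196, 206 and 349 CPM in TL+L, 33.8 CPM in TSeL, 254 CPM in TSeL+L and 130, 122 and 124 CPM in PBS (log2 1.00, adjusted p = 0.0444, edgeR). Scaled to epidermal keratins it did not pass (adjusted p = 0.150). TSeL was below all the others for Cdsn, as for Spink5, Klk5, Klk7, Klk6 and Klk10.

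Dsg1a, a gene for the corneodesmosomal cadherin desmoglein 1, had 347, 338 and 561 CPM in TL+L, 72.03 CPM in TSeL, 507 CPM in TSeL+L and 166, 157 and 122 CPM in PBS (log2 1.48, adjusted p = 0.0262, edgeR). Its close copy Dsg1c was also called (log2 3.38, adjusted p = 0.0247, edgeR) at under 2 CPM in every sample. Reads of Dsg1a, Dsg1b and Dsg1c may be split between them, so the value of each copy is uncertain. In TSeL 10 of the 11 genes of this list were below the PBS mean in the fit, with a median of -0.97, or -0.72 with epidermal keratin scaling. In TSeL+L 10 of 11 were above it, with a median of 1.01, or 0.36 with epidermal keratin scaling.

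Other stratum corneum proteases and their inhibitors (11 tested) gave 1 call higher and 3 lower in TL+L, beside 5.67% and 7.17% of all genes, with a median of 0.0276 (-0.30 with epidermal keratin scaling). Capns2, a small calpain subunit, rose, with 35.9, 25.8 and 37.3 CPM in TL+L, 13.01 CPM in TSeL, 37.4 CPM in TSeL+L and 12.1, 12.97 and 8.82 CPM in PBS (log2 1.55, adjusted p = 0.0183, edgeR). The lysosomal proteases Ctsl, Ctsh and Lgmn fell, by log2 values of -0.83, -0.69 and -1.11 (adjusted p = 0.0469, 0.0321 and 0.0346, edgeR). Dermal fibroblast genes (8) were also lower in TL+L, all 8 in the fit and 1 called, with a median of -1.19. They made up 1.18% to 4.003% of counts in TL+L, 2.17% in TSeL, 2.51% in TSeL+L and 4.84% to 6.59% in PBS. All 12 neutrophil genes were lower in TL+L too, 9 of them called. The part of either in these 3 falls was not tested. The Ctsl call was lost with library totals (adjusted p = 0.0531). Without 1 sample at a time, the calls of Cdsn, Dsg1a, Dsg1c, Capns2, Ctsl, Ctsh and Lgmn held in 1 of 6 cases each. Calls over all genes ran from 16 to 6299 in these cases, against 2029 with all samples.

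Of the 12 other tissue kallikreins in the table only Klk1, Klk9 and Klk12 had enough counts to be tested, and none was called in TL+L. Of 9 other Kazal inhibitors 2 were tested and none was called. Of all genes 12.8% were called, so with so few genes tested the absence of calls says little about either list. One of the Kazal inhibitors tested, Spink12, had 5.46, 0.228 and 6.75 CPM in TL+L, 0.140 CPM in TSeL, 1.20 CPM in TSeL+L and 0.854, 0.123 and 0.0592 CPM in PBS (adjusted p = 0.105 for TL+L, edgeR). No Kazal inhibitor tested other than Spink5 passed 6.75 CPM in any sample.

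Levels of different genes can be compared only per length, for which the TPM values of the authors (counts scaled for length and library) were used in the TL+L and PBS samples. In PBS skin Klk6 led with a mean of 314 TPM and a range of 268 to 341 TPM, clear of all the others. Klk13, Klk10 and Klk7 followed at 203, 200.3 and 193 TPM, with overlapping ranges, and then Klk8 at 156 TPM, whose highest sample reached the lowest of Klk7. Klk11 (65.5 TPM), Spink5 (51.9 TPM), Klk5 (38.0 TPM) and St14 (22.1 TPM) came next with ranges that did not overlap, and Klk14 (17.7 TPM) overlapped St14.

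In TL+L skin Klk6 (314 TPM) and Klk7 (289 TPM) overlapped at the top, above Klk10 (198 TPM). St14 stood sixth there by its mean of 111 TPM, against ninth in PBS skin. Its TL+L samples ran from 52.7 to 142 TPM and overlapped those of Klk13, Klk8, Klk11, Spink5 and Klk5. In TL+L 2, at 52.7 TPM, it was below Klk11, Spink5 and Klk5. Spink5 (64.1 TPM) and Klk5 (63.3 TPM) overlapped in TL+L, while in PBS their ranges were apart.

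The genes whose log2 CPM most resembled 3 of the 10 across the 8 samples were found among 12375 genes with a mean of at least 5 CPM. For Spink5 they were Rnf225 (Pearson r = 0.983), Tnks1bp1 (0.974) and Gdpd1 (0.966). For Klk5 they were Dsc1 (0.977), which encodes the corneodesmosomal cadherin desmocollin 1, Dsg1a (0.974) and Tdh (0.970). For Klk7 they were Mospd3 (0.988), Tmem40 (0.985) and Slc25a17 (0.985). The samples fall into treatment groups, and the single TSeL sample is the lowest for every one of these genes, so the values only describe likeness.

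Rnf225 showed this closely, with 30.4, 29.5 and 26.7 CPM in TL+L, 8.46 CPM in TSeL, 27.6 CPM in TSeL+L and 21.5, 22.8 and 22.6 CPM in PBS. Among the 10 genes themselves, Spink5 was most like Klk5 (r = 0.827) and Klk10 (0.806) and least like Klk13 (0.168). Klk5 and Klk13 ran against each other slightly (-0.254).

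The deposited transcript table splits the counts of some of these genes. Spink5, Klk7 and Klk10 came from 1 transcript in essentially all samples. For Klk6 the predicted transcript XM_030242237 took 34.1% to 54.4% of the gene in TL+L, 68.7% to 70.6% in the TSeL columns, 35.8% to 43.8% in the TSeL+L columns and 41.6% to 50.02% in PBS. For Klk11 the predicted XM_017322379 took 13.9% to 18.4% in TL+L, 39.2% to 43.5% in TSeL, 10.8% to 16.6% in TSeL+L and 8.20% to 21.4% in PBS. In both genes TSeL was above every other sample. For Klk13 the predicted XM_017322442 did the same, at 8.47% to 18.6% in the TSeL columns and at most 3.27% elsewhere. Ranges over the TSeL or TSeL+L columns are the technical spread of 1 sample, unlike those of TL+L and PBS. Shares of the other transcripts are not listed here. Shares of Klk5 transcripts were not stable: XM_006541150 took 20.3% to 68.0% between the nearly identical TSeL columns, so they were not compared.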

How the data were processed

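Per the labels' protocols, RNA of frozen skin was extracted with Trizol and made into TruSeq libraries after oligo-dT selection. Bowtie2 and RSEM are named in the submitters' processing notes. Their versions, the build, the annotation and the strand setting were not given in the sources used here. The expected counts and TPM of the gene table, and the transcript values behind the transcript shares, were made by the authors and used as deposited. Of the expected counts 88.7% were exactly whole numbers in the deposited table, and the others were rounded before testing. A further 30 measurement columns of the gene table were not used.

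No label explains the column codes TS and TSL. They were taken to mean TSeL and TSeL+L, which differ from each other by an L in the same way, and the values of both groups rest on that reading. The 3 columns of each differed by mean chi-squares of 1.19 to 1.41 and 1.38 to 1.49 per gene (genes with at least 40 counts in a pair), against 60.9 to 184 between TL+L samples and 25.1 to 59.0 between PBS samples. They were averaged and counted as 1 sample each.

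Genes passing filterByExpr (15791) were tested in 1 fit of 8 samples with edgeR 4.0.16 in R 4.3.3 (robust quasi-likelihood F-test, TMM factors of 0.852 to 1.10, 4 residual degrees of freedom, biological coefficient of variation 0.278). Tests were two-sided, p-values were Benjamini-Hochberg adjusted over all genes, and genes were called under 0.05. A lone sample is assumed to vary like the replicated groups. Standard errors are the log2 fold change over the square root of F. DESeq2 1.42.0 and limma 3.58.1 were alternatives. The test was tested on simulated data for TL+L against PBS (15569 genes, 200 changed): 30% of the genes changed 2-fold and 100% of those changed 4-fold were called, and unchanged genes made up 4.6% of the calls.

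The 10 genes and all lists were chosen with earlier results of these data known, so their p-values are no independent evidence. Named besides the 10 were the genes of each list called in TL+L against PBS, up to 4 by smallest p, with Prss8, Spint1, Spint2, Slpi, F2rl1, Cdsn and Spink12 in any case. Klk9, Klk12, Klk15, Dsg1b, Krt10 and the within-sample ratios of single gene pairs were added after seeing the values, as were the counts without Spink5 in the TSeL comparisons. Promoter windows are from a RefSeq table of GRCm38.p6, which need not be the authors' build.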

Additional observations from a re-analysis of the deposited data

How the results depend on the processing

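Which of the 10 genes were called depended on the settings. The number of all genes called moved too: in TL+L against PBS it was 2029, and 16 to 6299 leaving out 1 sample. Counts of the 10 are to be read beside those of all genes given below. These lack TL+L with epidermal keratin scaling, and give leaving out 1 sample only as a range. In TL+L against PBS, 2 were called, with 1 called after scaling to epidermal keratin counts, 4 with 12 columns as separate samples, and 0 to 3 leaving out 1 sample at a time (0 without any 1 of PBS 1, PBS 2, PBS 3, TL+L 1 or TL+L 3, and 3 without TL+L 2). In TSeL against PBS, 0 were called, with 7 as 12 columns, 2 in a fit of only the compared groups, 4 with DESeq2, and 0 to 2 leaving out 1 sample. In TSeL+L against PBS, 0 were called, with 6 as 12 columns, 4 in only the compared groups, 3 with DESeq2, and 0 to 2 leaving out 1 sample. The 2 in both came without TL+L 2. In TSeL+L against TSeL, 0 were called, with 5 as 12 columns and 2 with DESeq2. The counts that involve TSeL include Spink5, whose TSeL value is only a description. The 12-column fit counts nearly identical columns as replicates. Otherwise the cause was not tested.

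The number of all genes called in TL+L against PBS was 2029, with 4064 by DESeq2, 7164 as 12 columns, and 16 to 6299 leaving out 1 sample. In TSeL against PBS it was 0, with 1354 by DESeq2, 6521 as 12 columns, 415 in only the compared groups, 1 scaled to epidermal keratins, and 0 to 1315 leaving out 1 sample. In TSeL+L against PBS it was 2, with 1515 by DESeq2, 7093 as 12 columns, 1802 in only the compared groups, 195 scaled to epidermal keratins, 4 by limma-voom, and 0 to 2163 leaving out 1 sample. In TSeL+L against TSeL it was 0, with 360 by DESeq2 and 6618 as 12 columns.

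Some small log2 fold changes turned. With library totals, Klk6 (0.11) and Klk10 (0.084) in TL+L, Klk11 (0.047) in TSeL+L against PBS and Klk13 (0.18) in TSeL+L against TSeL were positive. With epidermal keratin scaling, Spink5 (-0.070) and Klk11 (-0.28) in TL+L, Klk11 (0.11) in TSeL, and Spink5 (-0.47) and Klk7 (-0.43) in TSeL+L against PBS turned. So did Klk6 (-0.49), Klk7 (-0.25), Klk8 (-0.65), Klk10 (-0.0083) and Klk11 (-0.82) in TSeL+L against TSeL. Leaving out 1 sample, values in TL+L ran from -0.30 to 0.12 for Klk6, -0.30 to 0.064 for Klk8, -0.24 to 0.069 for Klk10, -0.18 to 0.24 for Klk11, -0.85 to 0.0023 for Klk13 and -0.61 to 0.31 for Klk14. For Klk11 they ran from -0.38 to 0.0089 in TSeL and -0.22 to 0.11 in TSeL+L.

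The sample numbers did not pair TL+L with PBS: the deviations of samples numbered 1, 2 and 3 correlated at -0.175, 0.13 and 0.212. A fit with the replicate number as a block called 1 of the 10 genes and 1066 genes in all. Without replicates, TSeL and TSeL+L values carry counting error plus an unknown spread between mice.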

Other observations

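Ratios of pairs of these genes within a sample do not depend on library scaling. Of the pairs chosen after their values were seen, 3 did not overlap between TL+L and PBS. Among single genes 20.7% were higher without overlap and 21.8% lower, and the share over all gene pairs was not computed. The ratios are given with no test. Klk5 per Klk6 count was 0.145, 0.244 and 0.315 in TL+L, 0.164 in TSeL, 0.454 in TSeL+L and 0.115, 0.136 and 0.142 in PBS. Every sample outside PBS was higher than PBS, TL+L 1 only just. Klk13 per Klk7 count was 0.666, 0.780 and 0.195 in TL+L, 0.741 in TSeL, 0.417 in TSeL+L and 1.10, 1.07 and 1.01 in PBS, and PBS alone had more Klk13 than Klk7 counts. Matriptase against its inhibitor, St14 per Spint1 count, was 1.25, 1.29 and 1.58 in TL+L, 1.20 in TSeL, 1.47 in TSeL+L and 0.928, 0.811 and 1.15 in PBS.

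Klk10 per Spink5 count was 0.979, 0.633 and 0.624 in TL+L, 0.744 in TSeL, 0.427 in TSeL+L and 0.902, 0.994 and 0.851 in PBS. These overlapped between TL+L and PBS. Spink5 per count of Krt10, the suprabasal keratin, was 0.162, 0.0794 and 0.111 in TL+L, 0.107 in TSeL, 0.0451 in TSeL+L and 0.205, 0.136 and 0.140 in PBS. On that scale TSeL was no longer the lowest sample, TSeL+L was.

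Klk15, a kallikrein with too few counts to test, had 6, 0 and 8 counts in TL+L, 0 in TSeL, 4 in TSeL+L and 1, 0 and 0 in PBS.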
